A study of Mus musculus with 12 samples.

Results

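The 9 genes described here encode the myelin of oligodendrocytes: Mbp, Mobp, Mal, Cldn11, Cnp, Ugt8a, Mag, Mog and Myrf. They were chosen by symbol from a table of 27179 genes, all 9 were found, and all 9 passed the filter on low counts that left 15298 genes. RNA came from mouse cortex in 12 libraries. Wild-type mice (WT, Grn+/+; 4 libraries, aged 287 days in replicate 1 and 375 days in replicates 2, 3 and 4) have an intact progranulin gene. Knockout mice (KO, Grn-/-; 4 libraries, 282 to 308 days) lack mouse progranulin, a secreted protein that is delivered to lysosomes and whose human gene is mutated in frontotemporal dementia. Humanized mutant mice (MUT, Grn-/-; GRNmEx5; 4 libraries, 272 to 309 days) lack mouse Grn too and carry a human GRN allele with a deletion. The promoter that drives this allele is not given in the sources used here. Whether each library came from a separate animal is also not stated, so the tests measure the spread between libraries.

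Oligodendrocytes wrap axons in myelin, a compacted stack of membrane that is rich in cholesterol and in galactolipids and that speeds conduction. In the cortex, myelin is densest in the deep layers and in the white matter beneath them. Myelin proteins fall into those that compact the membrane, those that organise its lipids and junctions, those at the axon or the outer surface, and the transcription factors that switch the program on. Loss of progranulin is known to leave lysosomes overloaded, and microglia clear myelin through theirs.

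The targeted gene, Grn, stood at 58.0 ± 1.35 CPM in the WT libraries (CPM is reads for a gene scaled to a common TMM-adjusted library size; mean ± SD, 4 libraries). The KO level was 12.8 ± 1.38 CPM and the MUT level 13.5 ± 1.59 CPM. Library totals ran from 16381221 to 20782195 counts. Xist and Ddx3y, the sex-linked checks, ran opposite to the labelled sex in 12 of 12 libraries, which leaves the sex term of the fit as it is. Cortical excitatory markers were present in every library: Slc17a7, the vesicular glutamate transporter, lay between 1263 and 1793 CPM. Some libraries stood apart. WT replicates 2, 3 and 4 were high in striatal neuron genes, with summed levels of the 19 listed markers of 1104, 1860 and 3251 CPM against 510 CPM in WT replicate 1 and 512 to 731 CPM in the 8 null libraries. WT replicate 4, MUT replicate 1 and KO replicate 3 were high in choroid plexus genes, with summed levels of the 18 listed markers of 1247 to 2918 CPM against 239 to 294 CPM elsewhere. All 18 were detected in each of these 3 libraries and 15 to 18 in the others, where Folr1 had 0 to 5 counts. Enpp2, 1 of the 18, measured 209 to 278 CPM in those other libraries and so made up most of their sum. It is also in the list of other mature oligodendrocyte genes used below, and the choroid plexus level used below includes it.

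For 7 members a promoter window was found in RefSeq (GRCm38.p6); Mbp and Myrf had none. The 4 windows below are shown because they hold, or lack, the short sequence that Sox10 is known to bind. Sox10 is a transcription factor of the oligodendrocyte lineage. Each runs 5′ to 3′ over the 250 bases before the start site on the gene's own strand, and capitals mark matches to ACAANG on either strand.
Mobp (chr9:120149492-120149741, plus strand): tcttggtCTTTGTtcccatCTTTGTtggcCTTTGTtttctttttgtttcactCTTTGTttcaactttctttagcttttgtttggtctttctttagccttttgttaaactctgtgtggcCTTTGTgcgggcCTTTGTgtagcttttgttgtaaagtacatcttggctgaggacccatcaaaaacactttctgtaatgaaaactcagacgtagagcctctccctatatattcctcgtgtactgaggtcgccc
Mag (chr7:30914864-30915113, minus strand): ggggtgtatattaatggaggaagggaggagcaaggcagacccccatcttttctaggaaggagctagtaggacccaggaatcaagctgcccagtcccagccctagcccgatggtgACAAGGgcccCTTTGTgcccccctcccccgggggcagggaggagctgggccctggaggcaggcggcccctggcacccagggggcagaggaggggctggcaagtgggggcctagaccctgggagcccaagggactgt
Cnp (chr11:100574689-100574938, plus strand): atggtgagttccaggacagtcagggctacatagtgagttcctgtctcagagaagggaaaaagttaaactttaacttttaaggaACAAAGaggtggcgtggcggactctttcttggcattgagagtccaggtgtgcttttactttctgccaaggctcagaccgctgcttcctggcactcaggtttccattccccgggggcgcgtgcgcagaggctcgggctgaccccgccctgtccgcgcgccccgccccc
Cldn11 (chr3:31149670-31149919, plus strand): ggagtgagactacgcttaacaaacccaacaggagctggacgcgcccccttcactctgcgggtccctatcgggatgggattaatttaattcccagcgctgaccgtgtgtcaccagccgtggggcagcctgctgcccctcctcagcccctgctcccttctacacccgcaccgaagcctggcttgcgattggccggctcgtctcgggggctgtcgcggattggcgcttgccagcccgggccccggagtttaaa
Mobp holds 6 matches, between -243 and -120 from its start, all on the opposite strand. Mag holds 2, at -136 and -126, Cnp 1 at -167, and Cldn11 0. Over all 7 member windows ACAANG was present in 4, against 36.3% of 32851 windows in the table. CTGGNAC, letters known from Myrf binding, was present in 3 (Mog, Mag and Cnp) against 16.1%. The E-box CANNTG was present in 3 against 66.2%, the GC box GGGCGG in 2 against 32.7%, and TATAAA in 0 against 12.4%. No match of one of these motifs overlapped a match of another in the member windows. These are matches of letters and not sites of binding.

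Per length of exon, Mbp was the most abundant member in these libraries. Its level over the 12 libraries was 327 ± 47.3 RPKM (CPM per kilobase of exon, mean ± SD), above 99.4% of the genes tested. Cnp followed at 97.6 ± 12.7 RPKM. Mag (67.0 ± 9.00), Mal (64.5 ± 5.80), Cldn11 (62.4 ± 9.14) and Mobp (56.3 ± 6.61 RPKM) came next, and neighbours among these 4 did not differ beyond their spread. Mog stood at 25.9 ± 4.07 RPKM, and the regulator Myrf (11.5 ± 1.53) and the enzyme Ugt8a (10.2 ± 1.49 RPKM) were lowest and within each other's spread. Counts of a member in a library ran from 537 for Ugt8a in WT replicate 1 to 50093 for Mbp in KO replicate 3. In the table's mm10 coordinates the genes lie on 8 chromosomes: Mbp at 82475123 to 82585637 on chromosome 18, Cnp at 100574940 to 100581740 on chromosome 11, and Mag at 30899183 to 30914832 on chromosome 7. Mal spans 127633230 to 127656700 on chromosome 2, Mobp 120149740 to 120176090 on chromosome 9, Mog 37010740 to 37023398 on chromosome 17 and Myrf 10208271 to 10240748 on chromosome 19. Cldn11 (31149920 to 31164326) and Ugt8a (125865340 to 125938550) share chromosome 3 but are far apart. None of the 9 shares an exonic base with another gene in the table.

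The whole group was higher in KO than in WT in fitted level, and no single member passed an adjusted p of 0.05 over all genes. In KO against WT every fitted log2 fold change lay above 0, from 0.13 for Ugt8a to 0.39 for Mbp, with a median of 0.29 against 0.005 over all 15298 genes. By edgeR's quasi-likelihood test 0 of 9 passed the adjusted threshold, which 0.477% of all genes passed, 0.144% in the higher direction. All 9 lay above 0, as did 51.3% of all genes. At an unadjusted p below 0.05, 8 of 9 were higher, against 7.99% of all genes called higher that way. The members vary together over the libraries (median pair correlation 0.88), so these counts are not 9 separate results. They were also chosen with earlier results of these data known. DESeq2 called 3 (Mbp, Mobp and Cldn11; 1.43% of its genes were called higher), limma-voom called 0, and edgeR without the sex term called Mbp, against 0.654% of all genes. In bulk tissue, more oligodendrocytes and more myelin RNA per oligodendrocyte cannot be told apart. Age, labelled sex and striatal markers also run with the groups, as given below.

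The compact myelin proteins come first. Mbp, myelin basic protein, glues the cytoplasmic faces of the membrane together and is the member that separated the groups most clearly. Its CPM in replicates 1 to 4 was 1856, 1936, 1636 and 2228 in WT, 2329, 2581, 2778 and 2293 in KO, and 2346, 2125, 2274 and 1941 in MUT. All 4 KO libraries lay above all 4 WT libraries, which was so for 4.29% of all genes, and MUT overlapped both. The difference of KO from WT was 0.39 on the log2 scale (SE 0.10, 95% interval 0.18 to 0.60, edgeR adjusted p = 0.0828), and that of MUT from WT was 0.19 (SE 0.10, interval -0.03 to 0.42, adjusted p = 0.501).

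Mobp, a second basic protein of the same compartment, measured 222, 215, 217 and 263 CPM in WT and 275, 285, 302 and 253 in KO. The groups overlapped through WT replicate 4 alone, which exceeded KO replicate 4. KO stood 0.29 above WT (SE 0.08, adjusted p = 0.110). The MUT values were 260.1, 249, 248 and 211 CPM, 0.10 above WT (SE 0.09, adjusted p = 0.698) and 0.19 below KO (interval -0.38 to -0.01, adjusted p = 0.862).

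Mal and Cldn11 are tetraspan membrane proteins. Mal binds galactolipids and helps sort myelin cargo, and it was the steadiest member, with a coefficient of variation of 9.00% over the 12 libraries against a median of 13.4% over the members and 6.56% over the 8101 genes of at least 20 CPM. It measured 161, 157, 160.3 and 194 CPM in WT, 188, 197, 207 and 183 in KO and 181, 182, 173 and 167 in MUT. WT replicate 4 alone reached into the KO range, and all 4 MUT libraries lay below all 4 KO libraries, as was so for 1.85% of all genes. The fitted differences were 0.21 for KO against WT (SE 0.07, adjusted p = 0.157), 0.07 for MUT against WT (SE 0.08, adjusted p = 0.761) and -0.14 for MUT against KO (SE 0.07, adjusted p = 0.877).

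Cldn11, the claudin that forms the tight junctions between myelin layers, showed the clearest difference of MUT from WT among the members, still short of the threshold. It measured 100.3, 96.6, 81.6 and 122 CPM in WT, 129, 137, 139 and 117 in KO and 129, 123, 117 and 111 in MUT. Without WT replicate 4, every null library would lie above every WT library. Its log2 fold change was 0.39 in KO (SE 0.10, interval 0.16 to 0.61, adjusted p = 0.0979). In the mutant it was 0.26, with an interval of 0.02 to 0.51 and an adjusted p of 0.422.

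Enzymes represent the lipid and cytoplasmic side. Cnp, the phosphodiesterase that keeps cytoplasmic channels open within myelin, measured 215, 247, 209 and 277 CPM in WT and 263, 287, 335 and 256 in KO, with KO replicate 3 well above the rest. MUT measured 283, 256, 270.5 and 236 CPM, between the other groups in mean. KO stood 0.28 above WT (SE 0.11, adjusted p = 0.202) and MUT 0.16 above WT (SE 0.11, adjusted p = 0.629).

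Ugt8a, which makes galactosylceramide, the main glycolipid of myelin, was the member that least followed the others. It measured 29.5, 37.4, 26.98 and 46.5 CPM in WT, 32.4, 40.9, 39.1 and 39.1 in KO and 40.9, 33.9, 37.7 and 35.9 in MUT. WT spanned both null groups, with the highest library of all 12 in WT replicate 4. The fitted difference was 0.13 in KO (interval -0.19 to 0.46, adjusted p = 0.697) and 0.12 in MUT (interval -0.23 to 0.47, adjusted p = 0.816).

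Mag and Mog face the axon and the outer surface. Mag, a sialic acid binding protein on the membrane next to the axon, measured 127, 152, 136 and 180.0 CPM in WT and 163, 186, 205 and 168 in KO. Only WT replicate 4 entered the KO range. MUT measured 175, 149, 160.4 and 149 CPM and overlapped both other groups. KO stood 0.29 above WT (SE 0.11, adjusted p = 0.187), and the mutant stood 0.12 above WT (SE 0.12, adjusted p = 0.723).

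Mog, an immunoglobulin-like protein of the outermost layer and a late marker of maturation, measured 36.5, 37.7, 32.7 and 48.3 CPM in WT, 46.7, 47.7, 58.3 and 44.2 in KO and 50.7, 43.4, 44.1 and 39.7 in MUT. WT replicates 1 to 3 lay below all 8 null libraries, and WT replicate 4 above most of them. KO stood 0.34 above WT (SE 0.13, adjusted p = 0.187) and MUT 0.19 above WT (SE 0.13, adjusted p = 0.625).

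Myrf is the membrane-bound transcription factor that turns on myelin genes. It measured 54.4, 63.5, 50.4 and 74.2 CPM in WT, 67.2, 74.0, 78.6 and 66.9 in KO and 65.5, 61.2, 65.3 and 54.5 in MUT. All 4 MUT libraries lay below all 4 KO libraries, as was so for 1.85% of all genes, and WT overlapped both. KO stood 0.26 above WT (SE 0.11, adjusted p = 0.237) and MUT 0.06 above WT (SE 0.12, interval -0.19 to 0.32, adjusted p = 0.867). MUT against KO was at -0.20 (SE 0.11, interval -0.44 to 0.04, adjusted p = 0.910).

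**Figure D1:**
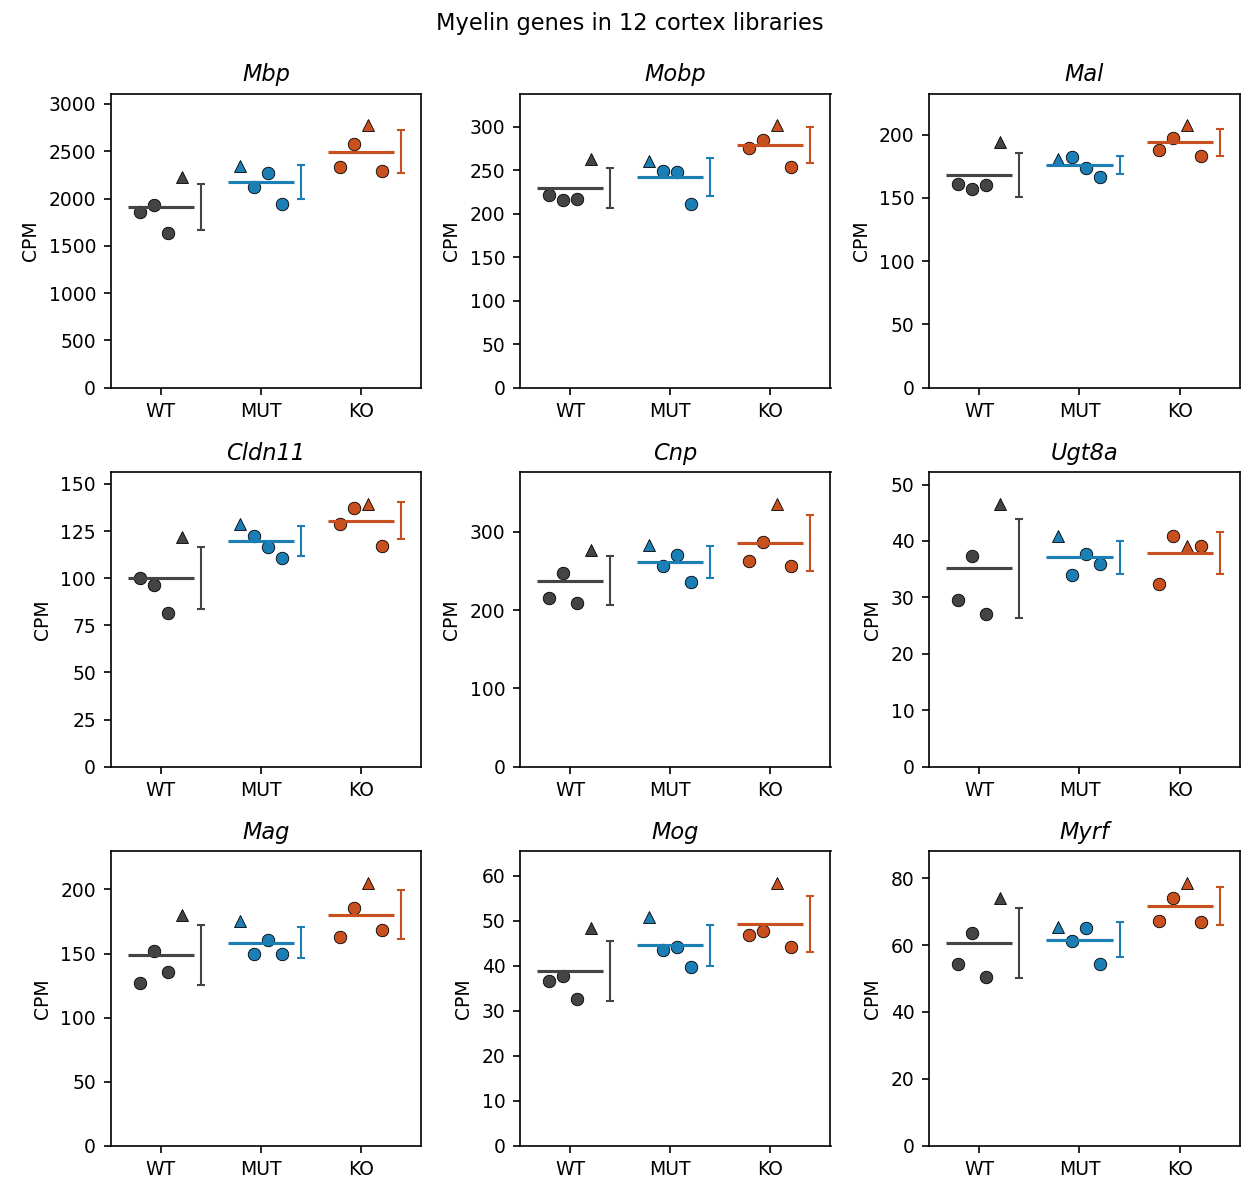
CPM of each member (vertical axis, from 0) in the 12 libraries by group; triangles are the 3 libraries high in choroid plexus genes, lines are group means and bars 1 SD (n = 4). The KO mean is the highest of the 3 in every panel, and the WT triangle stands above the other 3 WT libraries in every panel.

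**Figure D2:**
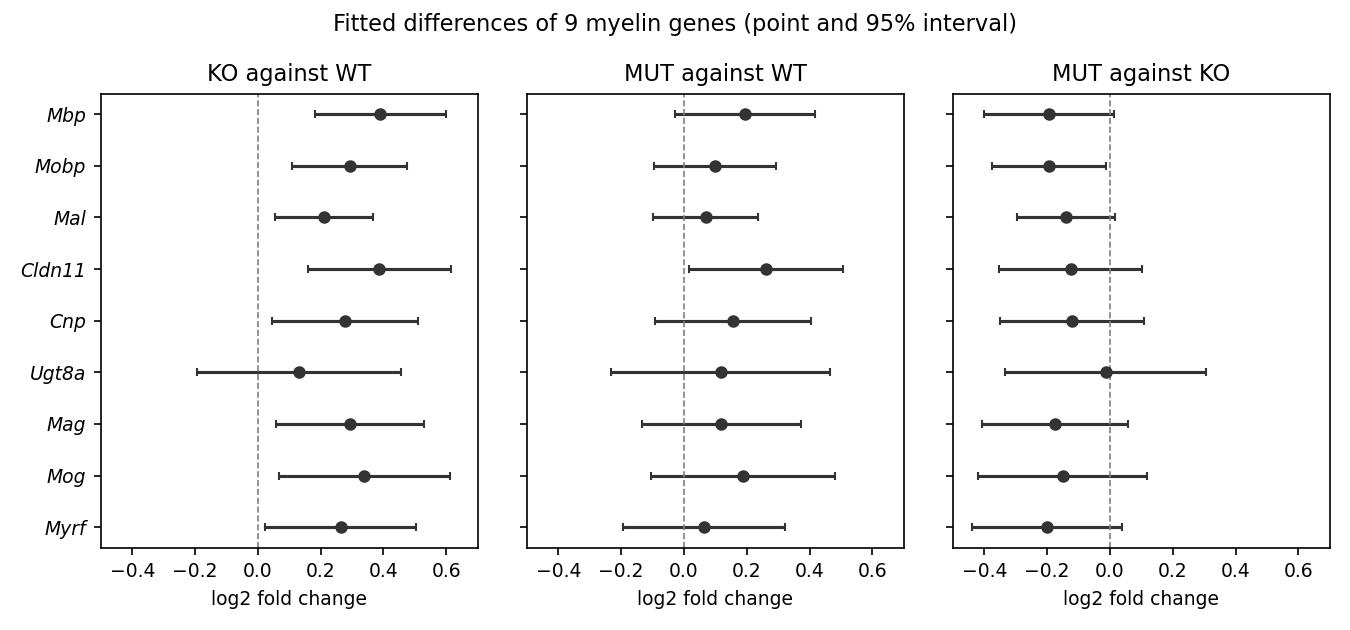
Fitted log2 fold changes (horizontal axis) of the 9 members with 95% intervals in the 3 comparisons. In KO against WT the points run from 0.13 to 0.39 and only the interval of Ugt8a crosses 0; in MUT against WT only that of Cldn11 stays above 0.

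In the humanized mutant the members lay between WT and KO. All 9 fitted differences of MUT from WT were above 0, from 0.06 for Myrf to 0.26 for Cldn11, with a median of 0.12 against 0.004 over all genes. By edgeR 0 of 9 passed the adjusted threshold, which 0.0196% of all genes passed (0.00654% higher). No member's libraries separated the groups, against 3.37% of all genes higher without overlap, and 51.0% of all genes lay above 0. A single member, Cldn11, was higher at an unadjusted p below 0.05, against 4.97% of all genes, and DESeq2 called 0 (0.0916% of all genes higher), as did limma-voom. The median was 0.074 without MUT replicate 1, 0.075 without WT replicate 1 and 0.22 without WT replicate 4. KO and MUT share the WT libraries, so their differences from WT are not separate evidence.

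MUT against KO is the direct comparison of the 2 null groups. All 9 differences lay below 0 (48.2% of all genes lay above it), from -0.20 for Myrf to -0.01 for Ugt8a, with a median of -0.15 against -0.004 over all genes. By edgeR 0 of 9 passed the adjusted threshold, which 0.00654% of all genes passed; 1, Mobp, was lower at an unadjusted p below 0.05, against 2.2% of all genes, and DESeq2 (0.0393% of all genes lower) and limma-voom called 0. The libraries of 2 members, Mal and Myrf, were lower without overlap, against 1.85% of all genes. By the adjusted tests the groups were not shown to differ in any member, and the intervals of all 9 reach to at least -0.29. The median was -0.078 without KO replicate 3, where Cnp and Ugt8a turned to above 0.

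The members varied together from library to library, within as well as between groups. Over the 12 libraries the Pearson correlation of log2 CPM between 2 members had a median of 0.88 over 36 pairs and ran from 0.52 (Mobp with Ugt8a) to 0.96 (Mog with Cnp). With each gene's group means removed the median was 0.86. Ugt8a had the lowest correlation with the level of the other 8, at 0.73, against 0.90 to 0.97 for the rest. These values describe libraries that share their scaling and their dissection.

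The highest library of a group was nearly always the same. In 25 of 27 sets of 1 member in 1 group, the highest library was the one high in choroid plexus genes: WT replicate 4, KO replicate 3 or MUT replicate 1. It was so in all 3 groups for 7 of 9 members, against 6.30% of all genes. WT replicate 4 stood above the mean of the other WT libraries by a median of 0.38 on the log2 scale over the members, KO replicate 3 above the other KO libraries by 0.18 and MUT replicate 1 above the other MUT libraries by 0.15. The part of choroid plexus tissue in this was not tested.

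Leaving out those 3 libraries gave a median of 0.32 for KO against WT and 0.21 for MUT against WT, with 0 of 9 called in each by edgeR (8 and 6 higher at an unadjusted p below 0.05, against 6.50% and 4.39% of all genes). With the choroid plexus level as a term, an alternative chosen after seeing the data, the KO median was 0.31 and 7 of 9 members passed, as did 0.673% of all genes in that direction. Those were Mbp (0.41, adjusted p = 0.0170), Mog (0.36, adjusted p = 0.0185), Mag, Mobp, Cnp, Mal and Cldn11. Ugt8a (0.16, adjusted p = 0.485) and Myrf (0.28, adjusted p = 0.0644) did not pass. No member passed in MUT against WT under that term (0 by edgeR, 6 higher at an unadjusted p below 0.05, against 6.20% of all genes).

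Age, striatal markers and labelled sex run with the groups too. Labelled female were WT replicate 1, MUT replicates 1, 2 and 4, and KO replicates 3 and 4. WT replicate 1 was the only WT library under 310 days, the only one labelled female and the only one low in striatal genes. It lay below all 8 null libraries for 8 of 9 members, against 12.5% of all genes. The exception was Mobp, at 222 CPM against 211 in MUT replicate 4. In animals under 310 days, where WT is that single library, the median was 0.39 for KO and 0.25 for MUT. Among libraries labelled male, with WT replicates 2 to 4, the KO median was 0.18, and 3 of 9 members were higher at an unadjusted p below 0.05, against 12.4% of all genes. Labelled female, where WT is replicate 1 alone, Mag (0.55), Cnp (0.46), Myrf (0.42) and Ugt8a (0.41) had their highest KO differences of any setting. Labelled male, the same members had their lowest, at 0.17, 0.18, 0.18 and -0.00099. The striatal level as a term gave 0.42 for KO and 0.31 for MUT. Age as a term gave 0.37 and 0.23, with 0 members called by edgeR under either term. The part of age, of labelled sex or of striatal tissue in the members' levels was not tested further.

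**Figure D3:**
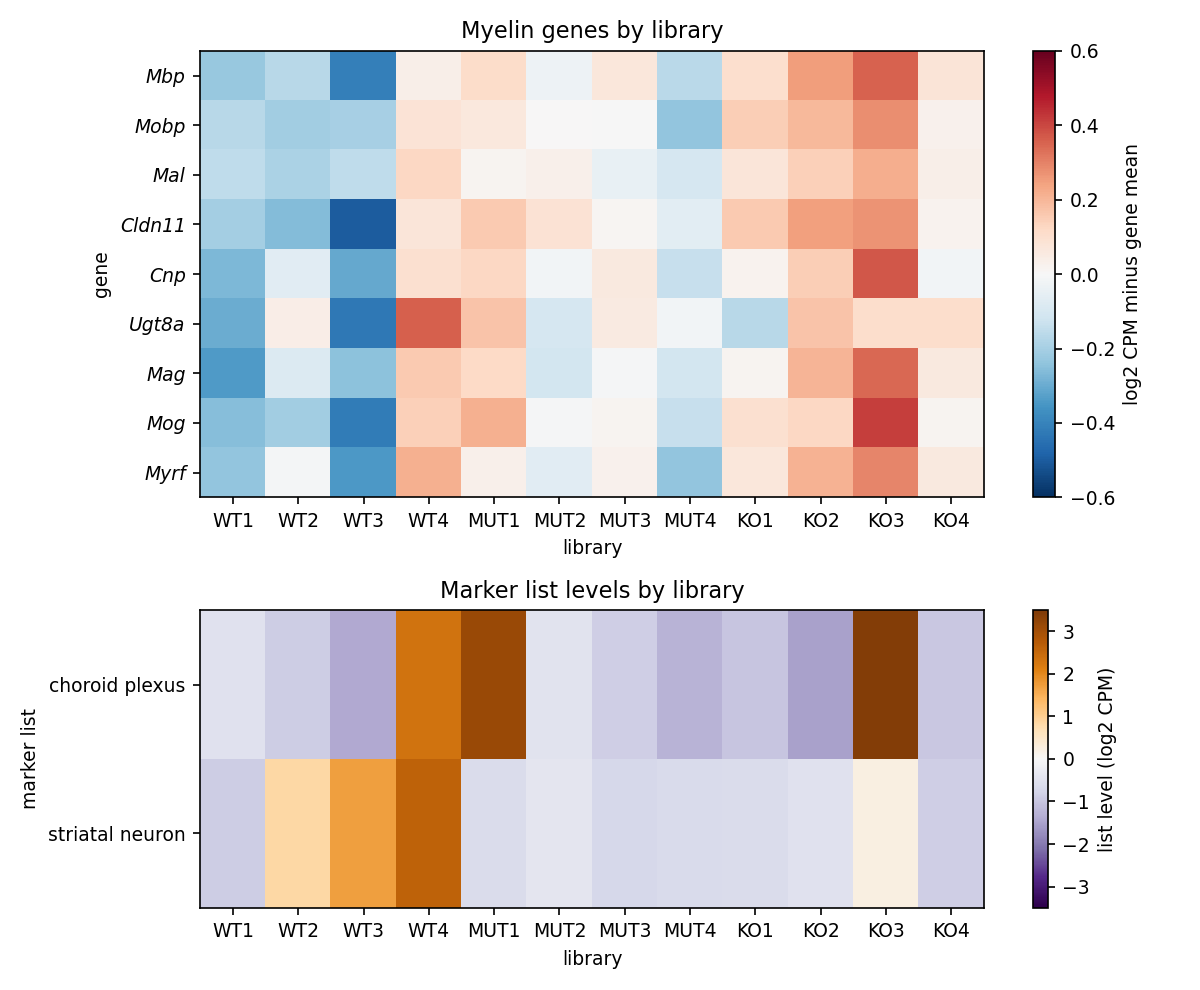
Upper panel: log2 CPM of each member minus its mean over the 12 libraries (colour). Lower panel: levels of the choroid plexus and striatal neuron lists in the same libraries (colour, mean centred log2 CPM). The columns of WT4, MUT1 and KO3 are the darkest choroid plexus columns and hold the highest or nearly the highest member values of their groups; WT1 and WT3 are the lowest WT columns.

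Relative to Mbp, a ratio that needs no scaling between libraries, 6 of the 8 other members overlapped between KO and WT, and 7 of 8 between MUT and WT. Myrf was the member that overlapped in neither. Of all other genes, 36.7% had a lower ratio to Mbp without overlap in KO and 7.12% in MUT. Mbp, the divisor, was itself higher in all KO libraries than in all WT libraries. Ratios to members other than Mbp were not taken. Its log2 ratio to Mbp was -5.09, -4.93, -5.02 and -4.91 in WT replicates 1 to 4, -5.11, -5.12, -5.14 and -5.10 in KO and -5.16, -5.12, -5.12 and -5.15 in MUT. Every null library lay below every WT library, by 0.13 in mean for KO and 0.15 for MUT. WT replicate 1 (-5.090) and KO replicate 4 (-5.097) were the nearest to each other. Of all other genes, 6.31% showed a ratio to Mbp lower in both null groups without overlap, a count that takes in Mbp's own higher level there. Mal to Mbp was lower without overlap in KO (-0.18), as were 36.7% of all other genes. Ugt8a to Mbp differed by -0.25 in KO with overlap.

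**Figure D4:**
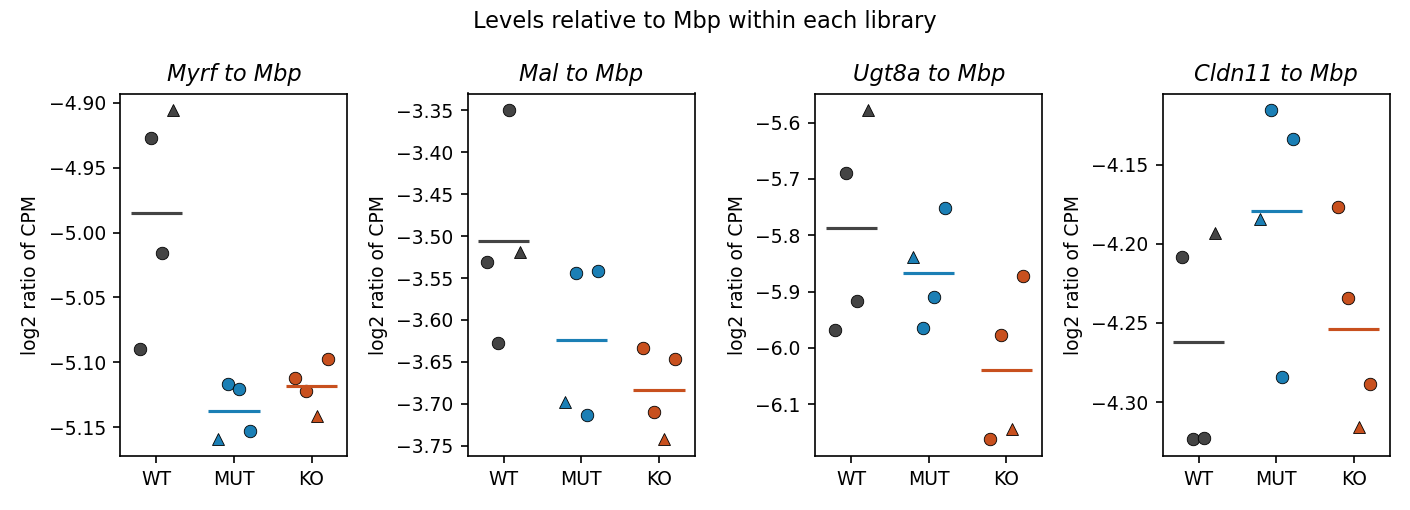
Log2 ratio of Myrf, Mal, Ugt8a and Cldn11 to Mbp in each library by group (vertical axes do not start at 0); lines are group means and triangles the libraries high in choroid plexus genes. For Myrf the 8 null libraries sit between -5.16 and -5.10 and the 4 WT libraries between -5.09 and -4.91.

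The genes whose pattern over the 12 libraries was most like the members' mean level included other myelin genes. Among 11644 genes of at least 5 CPM the highest Pearson correlations included those of Plekhb1 (0.98), Tmem63a, Ttyh2, Gatm, Rhog (each 0.96), Gjc3 and Fa2h (each 0.94). Fa2h encodes the hydroxylase of myelin galactolipids, and Gjc3 a connexin of glia. Of the 30 most alike genes, 14 were in the list of other mature oligodendrocyte genes, of which 37 were ranked.

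In that list of 38 other mature oligodendrocyte genes most also lay above 0. In KO against WT 32 lay above 0 with a median of 0.23, 0 passed by edgeR and 12 were higher at an unadjusted p below 0.05. Tppp, a tubulin-polymerising protein that neurons also express, stood at -0.02 in KO (SE 0.04). In 3 of the 38, Gal3st1, Qdpr and Cryab, named here after their values were seen, all KO libraries lay above all WT libraries, as was so for 4.29% of all genes. The MUT median was 0.12, with 30 above 0 and 0 called.

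Among genes of earlier stages and transcription factors of the lineage, no gene was called. Oligodendrocyte precursor genes had a median of -0.06 in KO, with 5 of 15 above 0 and 0 called by edgeR (4 lower at an unadjusted p below 0.05). Ptprz1, a phosphatase of precursors and astrocytes, measured 148 ± 17.0 CPM in WT, 121 ± 9.21 in KO and 143 ± 12.1 in MUT. It was 1 of the 4 lower (-0.29 in KO, SE 0.09, edgeR adjusted p = 0.131). Nxph1, highest of the list in RPKM, was at -0.08 in KO (SE 0.05). The precursor markers Pdgfra and Cspg4 were at 0.01 (SE 0.09) and -0.08 (SE 0.08). Genes of newly formed oligodendrocytes had a median of 0.08 over 14 members, 0 called (1 higher at an unadjusted p below 0.05); Bcas1, an early myelin protein, was at 0.23 (SE 0.10, adjusted p = 0.241). Transcription factors of the lineage had a median of 0.03 over 16, 0 called (1 higher and 1 lower at an unadjusted p below 0.05). Olig1, which drives lineage progression, was at 0.04 (SE 0.07). The 1 higher, named here after its values were seen, was Sox10 (0.32, SE 0.08, edgeR adjusted p = 0.0958). Its KO libraries all lay above its WT libraries, as was so for 4.29% of all genes. The 1 lower was Sox5 (-0.22, SE 0.07, edgeR adjusted p = 0.121). In MUT the medians of these 3 lists were -0.05, 0.09 and -0.06, again with 0 called.

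On the lipid side, genes of galactolipid and sulfatide metabolism had a median of 0.04 in KO with 11 of 14 above 0 and 0 called (4 higher and 1 lower at an unadjusted p below 0.05); Psap, the saposin precursor that also binds progranulin, was at 0.01 (SE 0.04). Cholesterol synthesis genes ran the other way, with a median of -0.09 and 18 of 22 below 0. Of these Hmgcs1 fell in KO, from 364 ± 12.4 to 301 ± 7.60 CPM (-0.27, SE 0.04, adjusted p = 0.0272), the single member called. In MUT the cholesterol median was -0.10, with 0 called by edgeR and 7 lower at an unadjusted p below 0.05. Hmgcs1 in MUT was at 310 ± 6.37 CPM, with a fitted difference from WT of -0.22 (SE 0.04, edgeR adjusted p = 0.199). For genes lower than WT at an unadjusted p below 0.05, the share of all genes is not given here.

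Genes that oligodendrocytes switch on around damage had a median of 0.01 in KO, with 1 of 14 called. That was C4b, a complement component also made by astrocytes and microglia, which rose from 29.6 ± 5.98 to 56.9 ± 8.56 CPM (0.94, SE 0.15, adjusted p = 0.0317); its near-identical copy C4a makes its counts uncertain. In MUT the median of this list was 0.18 with 12 of 14 above 0 and 0 called by edgeR (3 higher and 1 lower at an unadjusted p below 0.05), and C4b stood 0.85 above WT without overlap (SE 0.16, adjusted p = 0.182). The other cell types in the tissue were as follows. Astrocyte genes had a median of -0.04 with Gfap the single call of 12 (1.11, SE 0.20, adjusted p = 0.0429; 1 higher and 3 lower at an unadjusted p below 0.05). Microglia genes had a median of 0.10 with 2 of 14 called, Ctss (0.39) and Tyrobp (0.57), and 7 higher at an unadjusted p below 0.05. In MUT these medians were 0.01 and 0.12 with 0 called by edgeR (1 and 6 higher at an unadjusted p below 0.05). Gfap in MUT stood 1.23 above WT without overlap (SE 0.21, edgeR adjusted p = 0.154), as was so for 3.37% of all genes. Cortical excitatory neuron genes had a median of -0.08 with 0 of 14 called (1 higher and 2 lower at an unadjusted p below 0.05), striatal genes -1.62 with 0 of 18 called (18 lower at an unadjusted p below 0.05) and choroid plexus genes -0.41 with 0 of 11 called (0 at an unadjusted p below 0.05). The choroid plexus median comes from the fit with labelled sex. Without that term the mean list level was not lower in KO, at -0.02 ± 2.32 against -0.12 ± 1.68 in WT (centred log2 CPM, mean ± SD). Schwann cell genes, the myelinating cells of peripheral nerve, had a median of 0.09 with 0 of 7 called (0 at an unadjusted p below 0.05), and Pmp2, a peripheral myelin protein, had at most 1 count in any library.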

How the data were processed

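Cortical RNA was turned into directional libraries, per the labels' protocols. The values that the authors deposited are unnormalized read counts, 1 row a gene, beside gene identity, exon positions and exonic length. Build mm10 and the tools DESeq2 1.34.0 and R 4.1.2 come from the submitters' processing notes. No aligner, counter or strand setting is given in the sources used. Library columns were matched to samples by name, and no 2 libraries of a group agreed within sampling noise (lowest chi-square per degree of freedom 3.83).

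Genes were kept with edgeR's filterByExpr (minimum count 10, total 15), which left 15298 of 27179 (1049 without a symbol stayed in). After TMM scaling, edgeR 4.0.16 under R 4.3.3 fitted a model of group and labelled sex to all 12 libraries (8 residual degrees of freedom). Quasi-likelihood F tests were adjusted by Benjamini-Hochberg over all genes, with a threshold of 0.05. The edgeR test was tested on simulated data. RPKM divides CPM by deposited exonic length. The level of a list averages its genes' log2 CPM (prior count 2) after each gene's own mean is subtracted. Named are the 9 members, up to 4 called genes of each of 13 other lists or else the 2 highest in RPKM, and the 8 genes most alike; some of these are not reported here. Members and lists were chosen with earlier results of these data known. Alternatives were RLE factors, library size alone, 2 other filters (none, and 1 CPM in 4 libraries), DESeq2 1.42.0, limma-voom (limma 3.58.1), other covariates, a length trend removed by a spline with 4 degrees of freedom, subsets, and each library left out.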

Additional observations from a re-analysis of the deposited data

Results flagged for a closer look

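In 2 of 27 sets of 1 member in 1 group, a single library lay far from the other 3, by its gap as a share of the group's range (chance flags about 1 set in 20, and the members vary together, so these sets are not independent). Both were WT replicate 4, the library high in choroid plexus and striatal markers. Mal was at 194 CPM there against 157 to 161 in the other WT libraries (a gap of 0.895 of the range), and Mobp at 263 CPM against 215 to 222 (0.870 of the range).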

How the results depend on the processing

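In KO against WT the number of members called was 0 in 27 of 30 other settings, 3 with DESeq2, 1 (Mbp) without the sex term and 7 with the choroid plexus level as a term, an alternative chosen after seeing the data. It was 0 to 0 when each library was left out, where the median ran from 0.21 (without WT replicate 1) to 0.36 (without WT replicate 4). In both other comparisons it was 0 in 30 of 30. The KO median lay between 0.18 and 0.42 over all settings, with all 9 members above 0 in 29 of 30; the exception was Ugt8a labelled male, at -0.000993. In MUT against WT, Mag (-0.00933), Ugt8a (-0.0175) and Myrf (-0.00438) turned without WT replicate 1, and Myrf (-0.00172) without WT replicate 3; among the fits that left out 1 library, their highest values were 0.20, 0.25 and 0.15, each without WT replicate 4. In MUT against KO, Ugt8a turned labelled male (0.0376) and without MUT replicate 2 (0.0200), MUT replicate 3 (0.00108), KO replicate 2 (0.0126), KO replicate 3 (0.0222) or KO replicate 4 (0.0214), and Cnp without KO replicate 3 (0.00856). Among the fits that left out 1 library, the lowest values were -0.0839 for Ugt8a (without KO replicate 1) and -0.18 for Cnp (without KO replicate 4); the cause was not tested. The labels share replicate numbers, but pairing by number was not seen. Of 12 same-numbered pairs, 1 had deviations correlated above 0.1 (-0.38 to 0.29), and 2 of 12 libraries correlated best with their own number. The highest correlation between groups, 0.53, joined MUT replicate 1 and KO replicate 3, both high in choroid plexus genes. Tissue content could hide a weaker pairing, which this check cannot exclude. With the replicate block 0 members were called in each comparison and the KO median was 0.29. With 4 libraries a group, the members' differences of 0.13 to 0.39 had standard errors of 0.07 to 0.15, which limits what could be called.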
